A study of Mus musculus with 7 samples.

Results

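The 10 genes described here carry prostanoid signals from synthesis to breakdown and reception. They were taken as a list of symbols, drawn up with earlier results of these data known, and are 10 of the 21965 genes counted: the cyclooxygenases *Ptgs1* and *Ptgs2*, the terminal synthases *Ptges*, *Ptgis*, *Ptgds* and *Tbxas1*, the prostaglandin transporter *Slco2a1*, the degrading enzyme *Hpgd*, and the PGE2 receptor genes *Ptger2* and *Ptger4*. All 10 were found in the count table and passed the filter on low counts. RNASeq was performed on the contused thoracic cord (T9 level) at dpi 3, with 1 library from each of 3 mice labelled *Bmal1*-/- (1 male, 2 females) and 4 WT mice (2 males, 2 females). *Bmal1*, also called *Arntl*, encodes a transcription factor of the circadian clock, and the *Bmal1*-/- mice (B6.129-Arntltm1Bra/J on C57BL/6) came from a germ-line knockout, which affects every cell type. WT mice were C57BL/6, mostly purchased, with 1 littermate of the knockouts among them. All mice of both genotypes were 8 to 10 weeks old, received a moderate contusion and were perfused with PBS before 5 mm of cord around the epicenter was taken in the same morning window. No uninjured cord entered the comparison, so the differences are between genotypes after SCI, not between injured and intact tissue.

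Prostanoids are lipid signals made on demand from arachidonic acid, which phospholipases release from membranes. Cyclooxygenases turn it into prostaglandin H2, and terminal synthases convert that intermediate into PGE2, prostacyclin, PGD2 or thromboxane A2. Prostacyclin from the vessel wall relaxes vessels and restrains platelets while thromboxane does the reverse, and PGE2 shapes inflammation, vascular permeability and pain after tissue injury. The signals end when the transporter takes prostaglandins into cells and 15-hydroxyprostaglandin dehydrogenase oxidizes them.

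In the libraries labelled *Bmal1*-/-, *Ptgs1* fell to 63.9% of WT and was the single member past the threshold, an adjusted p under 0.05 by the quasi-likelihood test of edgeR, with p-values adjusted over all genes tested by the Benjamini-Hochberg method. That is 1 of 10 members called lower and 0 called higher, beside 0.915% of all genes tested that were called lower and 0.654% called higher (1.57% in either direction). At an unadjusted p under 0.05 there were 5 lower and 2 higher members, beside 12.2% and 8.64% of all genes (20.9% in either direction). In 8 members the genotypes did not overlap, 6 with all libraries labelled *Bmal1*-/- lower and 2 with all of them higher, against 13.5% and 13.4% of all genes (26.9% in either direction). Over the 10 members the log2 fold change had a median of -0.62, against -0.01 over all genes tested. DESeq2's Wald test called 5 members lower (*Ptgs1*, *Ptgs2*, *Ptges*, *Ptgis* and *Slco2a1*) and 2 higher (*Hpgd* and *Ptger4*), beside 5.63% and 3.50% of the genes to which it gave an adjusted p (9.13% in either direction).

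The libraries held 38529644 to 44096737 counts each, and 15743 genes were tested. *Arntl* itself was higher in the libraries labelled *Bmal1*-/-, at 22.5 to 24.2 CPM (counts scaled to a common library size with TMM factors) against 11.9 to 15.3 CPM in WT, with a log2 fold change of 0.77 (SE 0.10, edgeR adjusted p = 0.0155, lost without *Bmal1*-/- replicate 1, 2 or 3 or WT replicate 4). A count over the whole gene includes exons outside any deleted part, so it does not by itself check the deletion, and the labels are used as given. The clock output genes *Nr1d1* and *Dbp* were lower (log2 fold changes -2.51 and -1.85, adjusted p = 4.56e-04 and 0.00328 by the same edgeR test) and *Npas2* was higher (2.62, adjusted p = 9.18e-04). WT replicate 3 stood apart from the other libraries on the first principal components, and the values whose call depends on it are given both ways. It held the highest CPM of 7 members: *Ptgs1*, *Ptgs2*, *Ptges*, *Ptgis*, *Tbxas1*, *Slco2a1* and *Ptger2*.

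**Figure D1:**
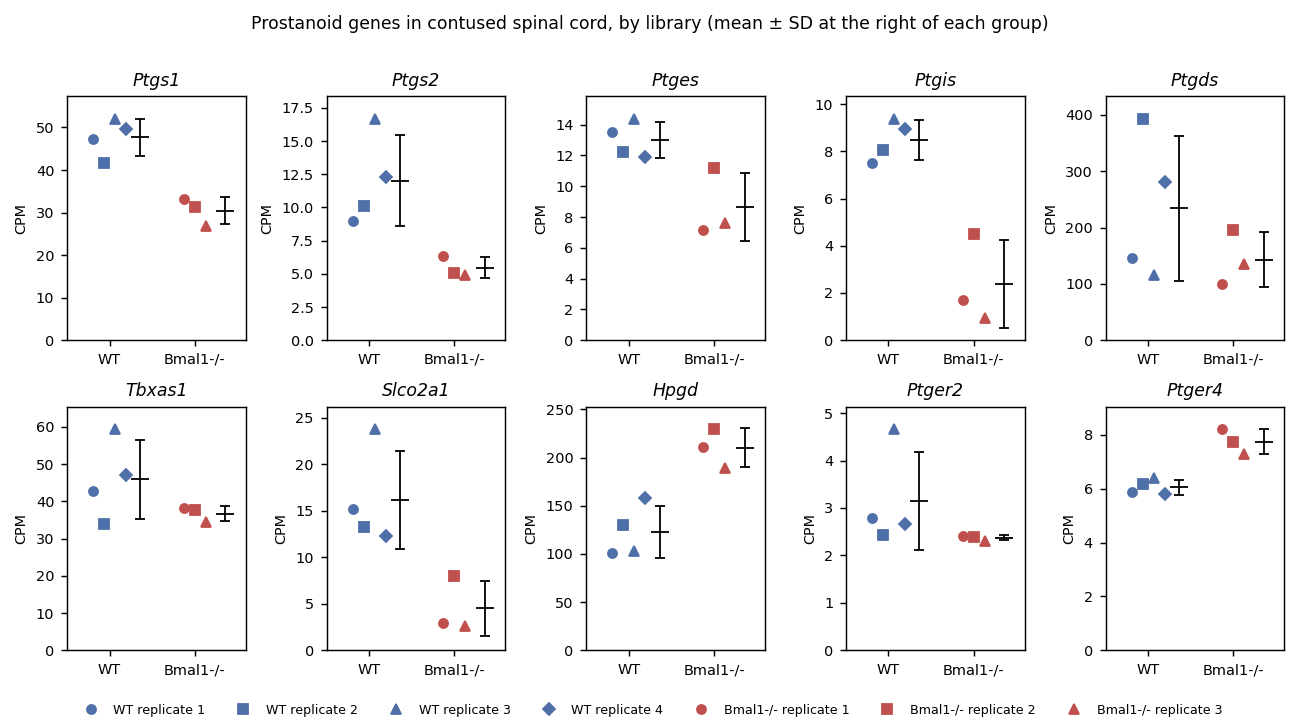
CPM of each of the 10 members in each library (circles, squares, triangles and diamonds for replicates 1 to 4), with WT in blue, the libraries labelled Bmal1-/- in red, and the mean ± SD at the right of each group. The genotypes are separate in 8 panels and overlap in those of Ptgds and Tbxas1, and Hpgd and Ptger4 are the panels in which the red points lie above the blue ones.

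The plot of CPM by library shows how the members divided. The 6 genes of synthesis, the transporter gene and *Ptger2* had fitted values below WT, and the degrading enzyme gene *Hpgd* and the receptor gene *Ptger4* had fitted values above it. The sequences just before the RefSeq transcription starts are given for the called member (*Ptgs1*), its inducible partner (*Ptgs2*), the member with a promoter entry and the lowest fitted ratio (*Slco2a1*) and the member with the highest (*Hpgd*). Each is the 250 bases before the start on the gene's own strand, here the plus strand for all of them, from RefSeq on GRCm38.p6. The windows are chr2:36230176-36230425 for *Ptgs1*, chr1:150099781-150100030 for *Ptgs2*, chr9:103008237-103008486 for *Slco2a1* and chr8:56294302-56294551 for *Hpgd*. Capitals mark matches, on either strand, to 5 motifs: the E-box CACGTG that BMAL1 with its partner CLOCK is known to bind, the E-box variant CACGTT, the TATA box TATAAA, the CCAAT box CCAAT and the GC box GGGCGG.
Ptgs1: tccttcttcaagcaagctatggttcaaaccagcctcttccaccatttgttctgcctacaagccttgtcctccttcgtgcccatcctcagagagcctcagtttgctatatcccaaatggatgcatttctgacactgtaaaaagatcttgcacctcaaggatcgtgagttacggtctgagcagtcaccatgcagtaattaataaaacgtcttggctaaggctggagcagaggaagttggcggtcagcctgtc
Ptgs2: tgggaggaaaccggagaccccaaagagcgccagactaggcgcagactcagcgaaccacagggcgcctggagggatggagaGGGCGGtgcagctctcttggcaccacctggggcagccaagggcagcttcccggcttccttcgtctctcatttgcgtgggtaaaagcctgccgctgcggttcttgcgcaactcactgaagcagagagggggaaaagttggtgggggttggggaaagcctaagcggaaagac
Slco2a1: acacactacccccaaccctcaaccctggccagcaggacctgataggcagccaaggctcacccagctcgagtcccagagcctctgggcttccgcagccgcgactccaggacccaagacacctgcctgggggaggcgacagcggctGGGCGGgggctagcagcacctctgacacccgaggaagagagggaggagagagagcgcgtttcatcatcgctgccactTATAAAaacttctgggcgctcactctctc
Hpgd: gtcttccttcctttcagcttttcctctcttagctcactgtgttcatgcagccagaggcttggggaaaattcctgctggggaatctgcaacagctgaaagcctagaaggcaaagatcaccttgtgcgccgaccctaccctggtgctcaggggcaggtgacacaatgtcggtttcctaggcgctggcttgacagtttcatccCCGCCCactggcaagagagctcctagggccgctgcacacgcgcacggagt

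Of the 10 members, 9 had an entry in the promoter table, and *Ptgis* is named only. None of the 9 windows held CACGTG or CACGTT, which occurred in 6.02% and 3.85% of the 32851 promoter windows of the same length. TATAAA (12.4% of all windows) lay in the windows of *Slco2a1*, 29 bases before the start, and of *Tbxas1*, where matches on the 2 strands overlap. GGGCGG (32.7% of all windows) lay in those of *Ptgs2*, *Ptges*, *Slco2a1*, *Hpgd* and *Ptger4*, and CCAAT (33.8%) in those of *Ptger2* and *Ptger4*. The *Ptgs1* and *Ptgds* windows held none of the 5 motifs. A match is a string of letters and not a tested binding site, and a window without a match says nothing about sites elsewhere.

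*Ptgs1* (ENSMUSG00000047250, GRCm38 chr2:36230426-36252272, plus strand) encodes cyclooxygenase-1, the form most cells make without stimulation. It had 33.2, 31.2 and 26.9 CPM in *Bmal1*-/- replicates 1 to 3 and 47.3, 41.7, 51.9 and 49.7 CPM in WT replicates 1 to 4. Every library labelled *Bmal1*-/- lay below every WT library. Means ± SD were 30.4 ± 3.21 CPM (n = 3) and 47.7 ± 4.40 CPM (n = 4). The log2 fold change was -0.65 (SE 0.10, 95% interval -0.89 to -0.40, edgeR adjusted p = 0.0332). The call depended on single libraries, since it was lost without *Bmal1*-/- replicate 1, 2 or 3 or WT replicate 1 or 4 (adjusted p from 0.0813 to 0.143), with the log2 fold change between -0.71 and -0.57 in every leave-one-out fit. With sex as a covariate the log2 fold change was -0.64 with an adjusted p of 0.0703 by the same edgeR test.

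*Ptgs2* (ENSMUSG00000032487, chr1:150100031-150108227, plus strand) encodes cyclooxygenase-2, the form that inflammatory signals and injury induce. Its levels were 6.38, 5.06 and 4.92 CPM in the libraries labelled *Bmal1*-/- and 8.95, 10.1, 16.7 and 12.3 CPM in WT. The genotypes did not overlap, and WT replicate 3 was the highest library. Group means ± SD were 5.45 ± 0.804 CPM (n = 3) and 12 ± 3.41 CPM (n = 4), so that the mean in the libraries labelled *Bmal1*-/- was 45.5% of WT. Its log2 fold change was -1.14 (SE 0.23, 95% interval -1.68 to -0.60), with an unadjusted p of 0.00149 and an edgeR adjusted p of 0.0655, which did not pass. Without WT replicate 3 it was -0.94 and passed (edgeR adjusted p = 0.0265), in a fit that called 2.80% of all genes lower and 1.86% higher (4.66% in all). With any other library left out *Ptgs2* did not pass (edgeR adjusted p from 0.0902 to 0.275).

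Within a library, *Ptgs2* was the less abundant cyclooxygenase per kilobase of exon. The log2 ratio of *Ptgs2* over *Ptgs1* was -2.62, -2.86 and -2.69 in the libraries labelled *Bmal1*-/- and -2.64, -2.29, -1.88 and -2.25 in WT. The 2 groups overlapped, through WT replicate 1. Their means ± SD were -2.72 ± 0.13 (n = 3) and -2.26 ± 0.31 (n = 4), a difference of -0.46 that is given as a description with no test.

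Among the terminal synthases, the prostacyclin synthase gene *Ptgis* (ENSMUSG00000017969, chr2:167191805-167240604, minus strand) differed most in its mean between genotypes, with 28.2% of the WT level. Prostacyclin synthase is a product of endothelium, smooth muscle and fibroblasts. The levels were 1.70, 4.5 and 0.939 CPM in the libraries labelled *Bmal1*-/- and 7.52, 8.07, 9.39 and 8.95 CPM in WT. All WT libraries lay above all libraries labelled *Bmal1*-/-, among which replicate 2 was the highest. The group means (± SD) were 2.38 ± 1.88 CPM (n = 3) and 8.48 ± 0.841 CPM (n = 4). The fitted log2 fold change of -1.83 (SE 0.48, 95% interval -2.94 to -0.71) did not pass (edgeR adjusted p = 0.112). Without *Bmal1*-/- replicate 2 it was -2.68 and passed (edgeR adjusted p = 0.0126), in a fit that called 0.838% of all genes lower and 0.290% higher (1.13% in all). With any other library left out *Ptgis* did not pass (edgeR adjusted p from 0.0974 to 0.313).

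*Ptges* (ENSMUSG00000050737, chr2:30889471-30929863, minus strand) encodes the inducible microsomal prostaglandin E synthase, which works beside cyclooxygenase-2. It had 7.19, 11.2 and 7.59 CPM in the libraries labelled *Bmal1*-/- and 13.5, 12.2, 14.4 and 11.9 CPM in WT. The genotypes did not overlap, although *Bmal1*-/- replicate 2 came close to WT replicate 4. Means ± SD were 8.66 ± 2.20 CPM (n = 3) and 13 ± 1.16 CPM (n = 4), 66.6% of WT. Fitted across all genes, the log2 fold change was -0.59 (SE 0.17, 95% interval -0.99 to -0.19, edgeR adjusted p = 0.141). Without *Bmal1*-/- replicate 2 it was -0.81 and passed (edgeR adjusted p = 0.0452), but not with any other library left out (edgeR adjusted p from 0.135 to 0.453).

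*Tbxas1* (ENSMUSG00000029925, chr6:38875404-39084585, plus strand) encodes thromboxane A synthase, which platelets and macrophages make. Its levels were 38.1, 37.6 and 34.5 CPM in the libraries labelled *Bmal1*-/- and 42.9, 34.0, 59.5 and 47.2 CPM in WT. WT replicate 2 was the lowest library of all 7 and WT replicate 3 the highest, so the genotypes overlapped. Group means ± SD were 36.8 ± 1.98 CPM (n = 3) and 45.9 ± 10.6 CPM (n = 4), with a log2 fold change of -0.32 (SE 0.17, 95% interval -0.73 to 0.09, edgeR adjusted p = 0.311). Without WT replicate 3 the log2 fold change was -0.17.

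Prostacyclin and thromboxane have opposing actions on platelets and vessels, and the log2 ratio of their synthase genes, *Ptgis* over *Tbxas1* per kilobase, separated the genotypes. It was -2.66, -1.24 and -3.37 in the libraries labelled *Bmal1*-/- and -0.69, -0.25, -0.84 and -0.57 in WT. The group means (± SD) were -2.42 ± 1.09 (n = 3) and -0.59 ± 0.25 (n = 4). The difference of -1.84 is a description, with no test.

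*Ptgds* (ENSMUSG00000015090, chr2:25466709-25470046, minus strand) encodes lipocalin-type prostaglandin D synthase, an abundant product of meninges and oligodendrocytes that also carries lipids in cerebrospinal fluid. It had 99.9, 195.1 and 134.5 CPM in the libraries labelled *Bmal1*-/- and 145.4, 393.7, 115.9 and 280.7 CPM in WT. The WT libraries spanned a wider range than the difference between the means, 143.2 ± 48.2 CPM (SD, n = 3) and 233.9 ± 128.4 CPM (SD, n = 4), and the genotypes overlapped. The log2 fold change was -0.71 (SE 0.45, 95% interval -1.76 to 0.34, edgeR adjusted p = 0.365). Without WT replicate 2, the highest library, it was -0.34, and the other leave-one-out values ran from -1.0 to -0.50. The gene had at least 3932 counts in each library.

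The transporter gene *Slco2a1* (ENSMUSG00000032548, chr9:102988712-103096002, plus strand) encodes the carrier that takes prostaglandins into cells, and in the nervous system it is known from vascular endothelium. Its levels were 2.97, 7.94 and 2.61 CPM in the libraries labelled *Bmal1*-/- and 15.2, 13.2, 23.8 and 12.3 CPM in WT. The genotypes did not overlap, with *Bmal1*-/- replicate 2 the highest of its group and WT replicate 3 the highest of all. Means ± SD were 4.51 ± 2.98 CPM (n = 3) and 16.1 ± 5.27 CPM (n = 4), 28.1% of WT. Its log2 fold change was -1.83 (SE 0.44, 95% interval -2.87 to -0.79, edgeR adjusted p = 0.0960). Without *Bmal1*-/- replicate 2 it was -2.52 and passed (edgeR adjusted p = 0.0273), but not with any other library left out (edgeR adjusted p from 0.0796 to 0.321).

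*Hpgd* (ENSMUSG00000031613, chr8:56294585-56321043, plus strand) encodes 15-hydroxyprostaglandin dehydrogenase, the enzyme of the first step of prostaglandin inactivation, and was the member with the highest ratio between genotypes. It had 211.3, 230.0 and 189.4 CPM in the libraries labelled *Bmal1*-/- and 100.8, 129.7, 103.0 and 157.8 CPM in WT. Every library labelled *Bmal1*-/- lay above every WT library, with WT replicate 4 the nearest. Group means ± SD were 210.2 ± 20.3 CPM (n = 3) and 122.8 ± 26.8 CPM (n = 4), 171.2% of WT. The fitted log2 fold change was 0.78 (SE 0.17, 95% interval 0.39 to 1.16), with an edgeR adjusted p of 0.0744. Without WT replicate 4 it was 0.92 and passed (edgeR adjusted p = 0.0437), but not with any other library left out (edgeR adjusted p from 0.0604 to 0.244).

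The log2 ratio of the PGE2 synthase gene *Ptges* over the degrading gene *Hpgd* per kilobase was -6.10, -5.59 and -5.87 in the libraries labelled *Bmal1*-/- and -4.12, -4.63, -4.06 and -4.96 in WT. The genotypes did not overlap in this ratio, whose means ± SD were -5.85 ± 0.26 (n = 3) and -4.44 ± 0.43 (n = 4). The difference of -1.41 carries no test.

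**Figure D2:**
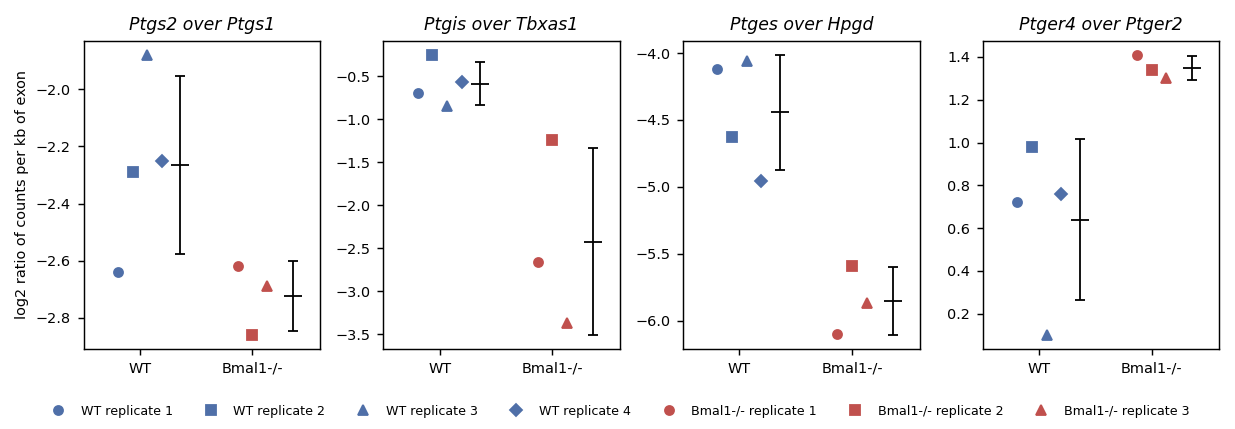
Log2 ratios of counts per kilobase of exon between pairs of members in each library, with WT in blue, the libraries labelled Bmal1-/- in red and the mean ± SD beside each group (each panel has its own axis). The genotypes overlap in the ratio of Ptgs2 over Ptgs1 and are separate in the other panels, with means of -0.59 and -2.42 for Ptgis over Tbxas1 in WT and Bmal1-/-.

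The receptor genes lay at low counts, 230 to 334 per library for *Ptger4* and 91 to 187 for *Ptger2*. Among the other members *Ptgis* had 37 to 376 counts and *Slco2a1* 103 to 953, with the lowest in libraries labelled *Bmal1*-/-. *Ptger4* (ENSMUSG00000039942, chr15:5206661-5244187, minus strand) and *Ptger2* (ENSMUSG00000037759, chr14:44988195-45003820, plus strand) encode EP4 and EP2, PGE2 receptors that raise cyclic AMP. *Ptger4* had 8.23, 7.75 and 7.28 CPM in the libraries labelled *Bmal1*-/- and 5.87, 6.17, 6.39 and 5.80 CPM in WT. The genotypes did not overlap and neither group spread widely, with means of 7.76 ± 0.476 CPM (SD, n = 3) and 6.06 ± 0.275 CPM (SD, n = 4). Fitted across all genes, the log2 fold change was 0.36 (SE 0.10, 95% interval 0.13 to 0.58, edgeR adjusted p = 0.121).

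*Ptger2* had 2.41, 2.39 and 2.31 CPM in the libraries labelled *Bmal1*-/- and 2.78, 2.44, 4.67 and 2.67 CPM in WT, on 91 to 187 counts per library. The libraries labelled *Bmal1*-/- lay just under the lowest WT library, and WT replicate 3 stood far above the rest. The group means (± SD) were 2.37 ± 0.0551 CPM (n = 3) and 3.14 ± 1.03 CPM (n = 4), with a log2 fold change of -0.41 (SE 0.24, 95% interval -0.98 to 0.17, edgeR adjusted p = 0.346). Without WT replicate 3 the log2 fold change was -0.15, the smallest of its leave-one-out fits.

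The 2 receptor genes thus had fitted values on opposite sides of 0, and the log2 ratio of *Ptger4* over *Ptger2* per kilobase was 1.41, 1.34 and 1.30 in the libraries labelled *Bmal1*-/- against 0.72, 0.98, 0.10 and 0.76 in WT. The groups did not overlap, and their means of 1.35 ± 0.06 (SD, n = 3) and 0.64 ± 0.38 (SD, n = 4) differed by 0.71, or by 0.53 without WT replicate 3. No test was made of this ratio. Whether the counting used strand was not given in the sources used here. A pseudogene on the opposite strand covers 15.3% of the *Ptger4* exon bases, and no single opposite-strand gene covers more than 6.08% of those of another member. If the counting ignored strand, reads of these genes cannot be told apart there.

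Per kilobase of exon, the WT levels of the members spanned from 141.9 ± 77.9 CPM per kb (SD, n = 4) for *Ptgds* to 0.605 ± 0.198 CPM per kb for *Ptger2*. *Ptgds* was followed by *Hpgd* (73.0 ± 15.9 CPM per kb), *Ptgs1* (12.3 ± 1.13 CPM per kb) and *Tbxas1* (5.05 ± 1.17 CPM per kb). *Ptges*, *Ptgis* and *Ptgs2* came next, at 3.31 ± 0.296, 3.3 ± 0.328 and 2.62 ± 0.744 CPM per kb, and each overlapped its neighbour in range. *Slco2a1*, *Ptger4* and *Ptger2* were lowest, at 1.19 ± 0.389, 0.911 ± 0.0413 and 0.605 ± 0.198 CPM per kb, again with overlapping neighbours. *Ptgds* and *Hpgd* overlapped in WT as well, while the remaining neighbours did not. In the libraries labelled *Bmal1*-/-, *Hpgd* (124.9 ± 12.1 CPM per kb, SD, n = 3) stood above *Ptgds* (86.8 ± 29.2 CPM per kb), and *Slco2a1* (0.333 ± 0.220 CPM per kb) had the lowest mean, in a range that overlapped that of *Ptger2* (0.193 to 0.586 and 0.445 to 0.465 CPM per kb).

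**Figure D3:**
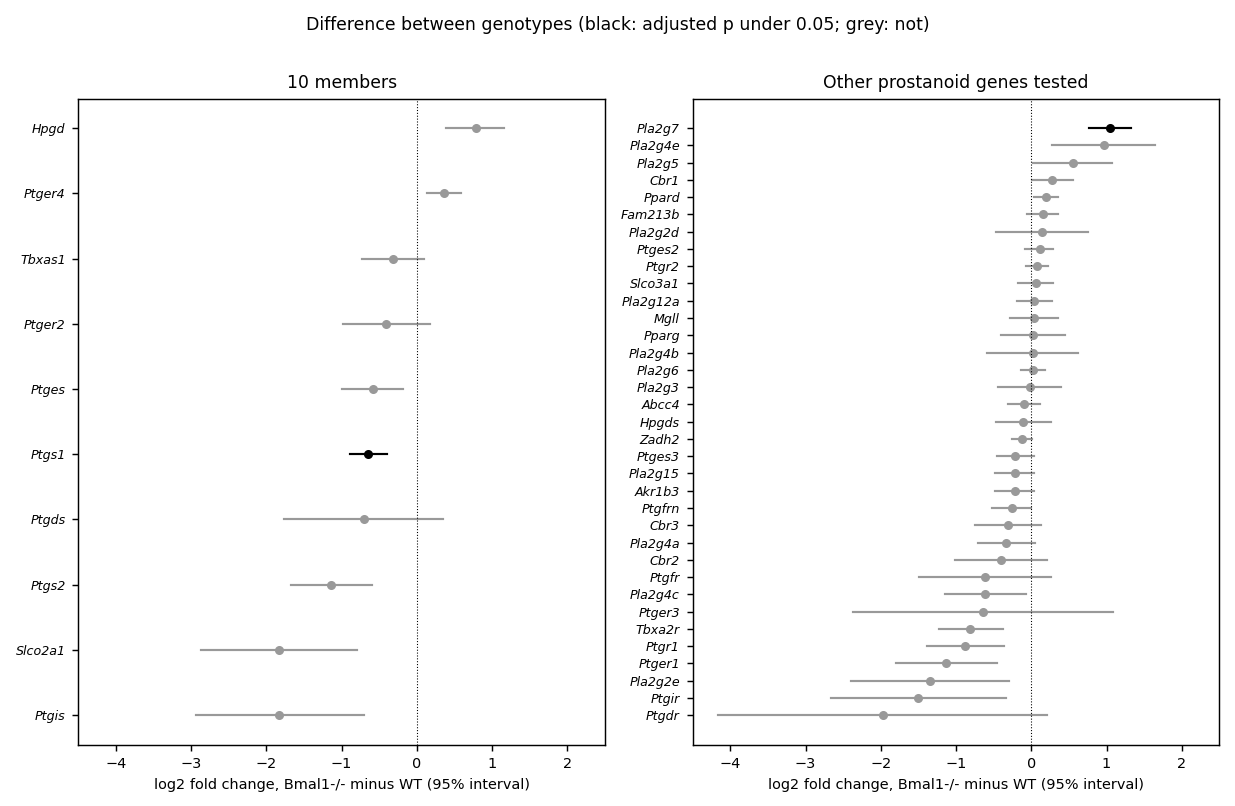
Log2 fold change (libraries labelled Bmal1-/- minus WT) with its 95% interval for the 10 members and for the 35 other prostanoid genes tested, in black where the adjusted p was under 0.05. Ptgs1 (-0.65) and Pla2g7 (1.05) are the black points, and the intervals of Ptgis (-2.94 to -0.71) and Slco2a1 (-2.87 to -0.79) are wider than that of Ptgs2 (-1.68 to -0.60).

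The rest of the pathway was described with 37 further genes, of which 35 were tested, and *Pla2g10* and *Ptgdr2* were too low. None was called lower and 1 was called higher by edgeR, beside the shares of all genes given above (0.915% and 0.654%). There were 7 lower and 5 higher at an unadjusted p under 0.05, beside 12.2% and 8.64% of all genes. DESeq2 called 4 lower and 2 higher, beside 5.63% and 3.50% of the genes to which it gave an adjusted p. Of the 35, 20 had a fitted value below 0 and 15 above, and their median log2 fold change was -0.11. The plot of fold changes sets them beside the members.

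The gene that rose was *Pla2g7*, which encodes the lipoprotein-associated phospholipase that inactivates platelet-activating factor and is not a step of prostanoid synthesis itself. It had 370.5, 381.2 and 374.4 CPM in the libraries labelled *Bmal1*-/- and 212.5, 190.4, 147.8 and 175.6 CPM in WT. The genotypes were far apart, and the libraries labelled *Bmal1*-/- lay close together (375.3 ± 5.41 CPM, SD, n = 3) above the WT mean of 181.6 ± 27.1 CPM (SD, n = 4). The log2 fold change was 1.05 (SE 0.12, edgeR adjusted p = 0.0092). Without *Bmal1*-/- replicate 1 the value was 1.06 and did not pass (edgeR adjusted p = 0.0641). Over all 7 libraries the highest means per kilobase in this list were those of *Pla2g7* (91.1 CPM per kb), *Ptges3* (74.4 CPM per kb), which encodes the co-chaperone p23, and *Fam213b* (41.2 CPM per kb), a prostaglandin F synthase. In WT *Ptges3* stood above *Pla2g7* (78.9 and 62.5 CPM per kb), and in the libraries labelled *Bmal1*-/- below it (68.4 and 129.2 CPM per kb). *Ptges3* and *Fam213b* had log2 fold changes of -0.21 (adjusted p = 0.293) and 0.15 (adjusted p = 0.353) by the same edgeR test. Over the 13 phospholipase and arachidonate-release genes tested, 5 fitted values were below 0 and 8 above. *Pla2g4a*, the cytosolic phospholipase that releases arachidonic acid and is named here after its values were seen, ran from 22.3 to 30.5 CPM in the libraries labelled *Bmal1*-/- and from 26.2 to 40.5 CPM in WT, with overlap (log2 fold change -0.33, edgeR adjusted p = 0.281).

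All 6 prostanoid receptor genes tested outside the members had fitted values below 0, from -1.97 to -0.61, and none passed in edgeR. Of the 6, 3 were lower at an unadjusted p under 0.05, beside 12.2% of all genes. The thromboxane receptor gene *Tbxa2r* had 1.02, 1.37 and 1.04 CPM in the libraries labelled *Bmal1*-/- and 1.99, 1.98, 2.30 and 1.74 CPM in WT. The genotypes did not overlap (log2 fold change -0.81, SE 0.18, edgeR adjusted p = 0.0807). The prostacyclin receptor gene *Ptgir*, also named after its values were seen, ran from 1.55 to 2.00 CPM in the libraries labelled *Bmal1*-/- and from 1.94 to 8.42 CPM in WT, where WT replicate 4 reached into the range of the other genotype (log2 fold change -1.5, SE 0.50, edgeR adjusted p = 0.174).

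Beside *Hpgd*, the degradation genes listed were *Ptgr1*, *Ptgr2* and *Zadh2*, which encode reductases that act on oxidized prostaglandins. *Ptgr1* had 11.8, 11 and 9.82 CPM in the libraries labelled *Bmal1*-/- and 18.2, 15.6, 28.8 and 17.3 CPM in WT. It thus lay lower without overlap where *Hpgd* lay higher without overlap (log2 fold change -0.88, SE 0.22, edgeR adjusted p = 0.103). Without WT replicate 3 the value for *Ptgr1* was -0.65 and passed (edgeR adjusted p = 0.0185), but not with any other library left out (edgeR adjusted p from 0.102 to 0.373). The other transporter genes listed, *Abcc4* and *Slco3a1*, which were named after their values were seen, had fitted values of -0.10 and 0.06, and the 8 other terminal synthase genes lay between -0.40 and 0.28.

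In bulk tissue, fewer cells of a type and less RNA per cell cannot be told apart, so summed marker levels are given beside the members. Marker sums of endothelium, where *Slco2a1* is known to be expressed, were 578.3 to 647.6 CPM in the libraries labelled *Bmal1*-/- and 687.9 to 1141.9 CPM in WT. All 12 endothelial markers had fitted values below 0, with a median log2 fold change of -0.60 (-0.36 without WT replicate 3), and *Cdh5* was called (-0.85, SE 0.15, edgeR adjusted p = 0.0466), a call lost without any 1 library other than WT replicate 3. Of these 12 markers 7 were lower and 0 higher at an unadjusted p under 0.05, beside 12.2% and 8.64% of all genes. Sums of mural cell markers were 467.1 to 585.1 CPM against 805.0 to 1034.4 CPM, with a median of -0.39 over 10 genes (-0.24 without WT replicate 3) and *Tagln* called lower (-1.88, SE 0.19, edgeR adjusted p = 0.00525). Of the 10 mural markers 7 had fitted values below 0 and 3 above, with 5 lower and 2 higher at an unadjusted p under 0.05, and the sum includes *Tagln* at 90.6 CPM against 332.5 CPM in WT. The fitted values of *Slco2a1* and *Ptgis* were both -1.83. Those of endothelial markers ran from -0.85 to -0.14, of mural markers from -1.88 to 0.33, and of the fibroblast and meningeal markers described next from -2.30 to 0.52. The part of endothelial and mural cells in the results of *Slco2a1*, *Ptgis* and *Ptgs2* was not tested.

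Fibroblast and meningeal markers were 12 genes with a median of -1.02 and no edgeR call. Of these 4 were lower at an unadjusted p under 0.05, beside 12.2% of all genes. The 12 markers summed to 335.1, 1788.9 and 259.8 CPM in *Bmal1*-/- replicates 1 to 3 and to 925.9 to 1574.8 CPM in WT. The sum in *Bmal1*-/- replicate 2 was thus above every WT library, with *Col1a1*, *Col1a2* and *Mgp* as its largest terms. Its *Col1a1*, *Col1a2*, *Mgp*, *Slc47a1* (44.9 CPM) and *Igf2* (4.27 CPM) were each above every WT library. Its *Lum* (16.1 CPM) and *Aldh1a2* (23.6 CPM) were below every WT library, and *Dcn*, *Ogn*, *Foxc2*, *Slc6a13* and *Slc22a6* lay within the WT range (these markers were named after their values were seen). In the same library *Ptgis* (4.5 CPM), *Slco2a1* (7.94 CPM) and *Ptges* (11.2 CPM) were the highest of the genotype and still below every WT library. The mural marker sum of this library (585.1 CPM) was likewise the highest of the genotype and below every WT library. The part of either marker list in the differences of *Ptgis*, *Slco2a1* and *Ptges* was not tested. Without replicate 2 the median of the fibroblast and meningeal list was -2.28.

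**Figure D4:**
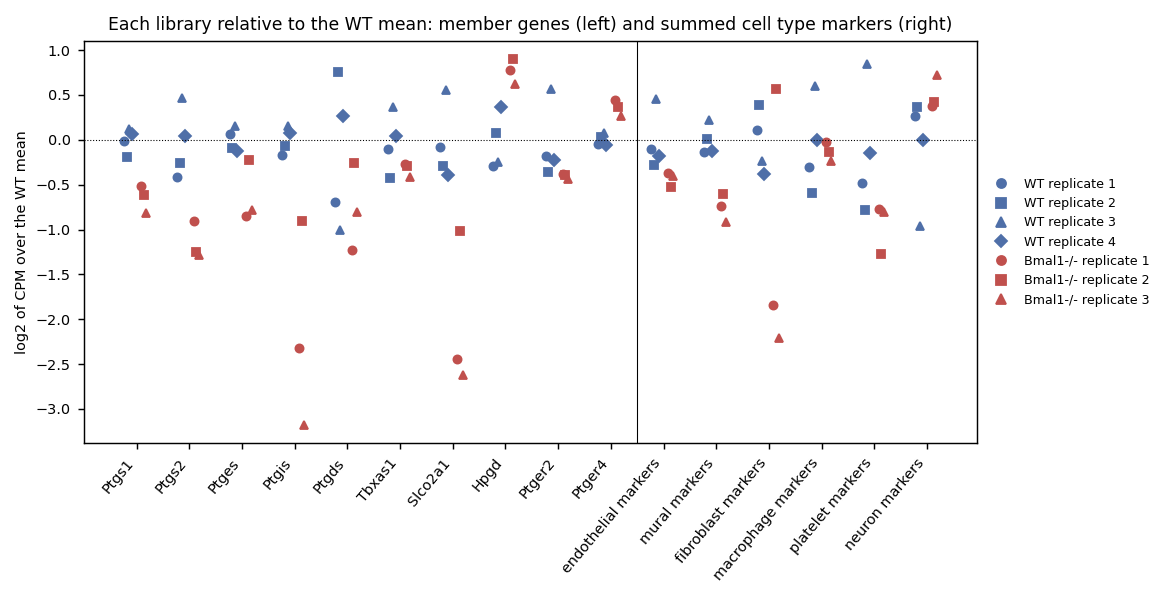
Log2 of each library's CPM over the WT mean, for the 10 members at the left and for summed markers of 6 cell types at the right, with WT in blue and the libraries labelled Bmal1-/- in red. Bmal1-/- replicate 2 (red square) is the highest red point for Ptgis, Slco2a1, Ptges, Ptgds and Hpgd and for the fibroblast and mural markers. WT replicate 3 (blue triangle) is the highest blue point for every member but Ptgds and Hpgd and for the endothelial, mural, macrophage and platelet markers.

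Macrophage markers, which mark a source of *Tbxas1*, summed to 7495.5 to 8705.4 CPM in the libraries labelled *Bmal1*-/- and 5905.9 to 13494.1 CPM in WT. *Spp1*, named after its values were seen, was the largest term, with means of 4902.2 CPM in the libraries labelled *Bmal1*-/- and 5307.1 CPM in WT. WT replicate 3 had the highest sum of these markers and WT replicate 2 the lowest. Their median log2 fold change was -0.30 over 12 genes with no call (-0.12 without WT replicate 3), and that of 8 microglial markers was -0.11, or -0.19 to 0.03 with each library left out and above 0 without WT replicate 4 (sums 1165.9 to 1357.7 against 1227.1 to 1610.3 CPM). Platelet markers summed to 16.6 to 23.5 CPM against 23.4 to 72.1 CPM (median -0.92 over the 4 of 5 tested), and neutrophil markers to 22.9 to 44.6 CPM against 25.6 to 91.5 CPM (median -0.76 over 7, -0.39 without WT replicate 3), with no call in either list. At an unadjusted p under 0.05 there were 3 macrophage, 1 microglial, 3 platelet and 1 neutrophil markers, all lower. Of all genes 12.2% were lower at that p. Of 6 mast cell markers 2 were tested (median 0.27, sums 23.5 to 24.7 against 21.4 to 29.7 CPM), while *Cpa3*, *Cma1*, *Mcpt4* and *Fcer1a* were near 0. *Pf4* made up most of the platelet sums (means 15.9 against 33.3 CPM in WT) and *Kit* most of the mast cell sums (19.7 against 22.1 CPM). Both were named after their values were seen. The part of these cells in the results was not tested.

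The labelled tissue was checked with neural markers. Astrocyte markers summed to 14101.1 to 16782.0 CPM in the libraries labelled *Bmal1*-/- and 9524.3 to 13609.3 CPM in WT, neuronal markers to 3043.7 to 3859.8 and 1203.7 to 3037.1 CPM, and oligodendrocyte markers to 19981.6 to 24963.2 and 19980.6 to 28809.2 CPM. Their medians were 0.22, 0.51 and 0.08, with no call by edgeR. At an unadjusted p under 0.05 there were 2 lower and 1 higher astrocyte markers, 1 higher neuronal marker and 1 higher oligodendrocyte marker. Of all genes 12.2% were lower and 8.64% higher at that p. *Gfap*, named after its values were seen, made up most of the astrocyte sums, with means of 11642.4 CPM in the libraries labelled *Bmal1*-/- and 8701.8 CPM in WT. Without WT replicate 3 the astrocyte and neuronal medians were 0.07 and 0.29, and the oligodendrocyte median ran from 0.02 to 0.15 over the leave-one-out fits. Schwann cell markers (3 genes, median -3.04, no call and all 3 at an unadjusted p under 0.05) summed to 150.3 to 205.7 CPM against 227.8 to 540.7 CPM. Markers of skeletal muscle, a tissue outside the cord, summed to 2.85 to 3.60 CPM against 30.4 to 35.3 CPM, and all 4 (*Ckm*, *Acta1*, *Myh1* and *Atp2a1*) were called lower, with a median of -3.47. The calls of *Acta1*, *Myh1* and *Ckm* were lost without *Bmal1*-/- replicate 1, those of *Myh1* and *Ckm* without replicate 3, and that of *Ckm* also without *Bmal1*-/- replicate 2 or WT replicate 1. Whether tissue taken with the cord, of which these markers are a measure, has a part in the members' values was not tested.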

How the data were processed

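RNASeq data came from the injury epicenter of 3 mice labelled *Bmal1*-/- and 4 WT mice at dpi 3. The authors made poly-A-enriched, stranded libraries, mapped the reads using Tophat2 and deposited raw counts per gene. The submitters' processing notes name FastQC 0.10.1, HTSeq 0.10.0 and the build GRCm38 (mm10). The annotation release and the strand setting of the counting were not given in the sources used here. No other columns of per-sample values were left unused (0), and groups, sex and replicate numbers were taken from the labels. Each library is a separate mouse.

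Of the 21965 gene IDs, 21939 matched GENCODE release 21 for mouse, which gave symbols, positions and exon lengths. Genes were filtered with filterByExpr on genotype, normalized with TMM and compared by quasi-likelihood test in edgeR (edgeR 4.0.16, limma 3.58.1, R 4.3.3), two-sided, with Benjamini-Hochberg adjustment over all 15743 genes tested and a threshold of 0.05. Levels are CPM with TMM factors, divided by the union exon length in kilobases where genes are compared with one another. Each library held at least 38529644 counts, and the common dispersion was 0.0342. Fits were tested on simulated data with known changes.

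The members and gene lists were chosen with earlier results of these data known. Named genes are all members, called genes of the other prostanoid and of the lipoxygenase list, in each of these lists the 4 with the smallest p and the 3 with the highest level per kilobase, called markers and markers near 0, *Arntl*, *Nr1d1*, *Dbp* and *Npas2*, and the 3 genes most like *Ptgs2*, *Slco2a1* and *Ptgds*. Genes outside this rule are said to be so. A result that meets the rule is not reported here. Alternatives were RLE size factors, limma-voom, DESeq2 1.42.0, filters at a total of 1 count or a mean of 10, a term for sex, a block for replicate number, and the omission of each library. Leaving out libraries was added for the ratios after seeing the data. RefSeq promoter windows (GRCm38.p6) were searched on both strands. Figures used matplotlib 3.10.9 and python 3.11.15. Uninjured cord was not analysed here.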

Additional observations from a re-analysis of the deposited data

Results flagged for a closer look

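*Ptger2*, the EP2 receptor gene, had 1 value far from the others of its group. WT replicate 3 was counted at 4.67 CPM and the other WT libraries at 2.44 to 2.78 CPM, a gap that took up 0.848 of the group's range, above Dixon's 95% critical value for 4 samples. It was the single such value among the 49 groups examined, and chance flags about 1 group in 20.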

How the results depend on the processing

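With DESeq2 the log2 fold changes of *Ptgs2* (-1.13, adjusted p = 2.79e-04), *Slco2a1* (-1.83, 6.31e-04), *Hpgd* (0.78, 7.99e-04), *Ptgis* (-1.83, 0.00202), *Ptger4* (0.36, 0.0145) and *Ptges* (-0.58, 0.0269) passed the threshold. DESeq2 called 5 members lower and 2 higher, 4 and 2 of the other prostanoid genes, and 2 lipoxygenase genes lower. It called 21 cell type markers lower (6 with edgeR) and 3 higher. Among all genes to which it gave an adjusted p it called 922 lower and 573 higher (5.63% and 3.50%). For *Ptgs1* the value was -0.64 with sex as a covariate, where 0 members were called lower, and -0.63 (adjusted p = 0.372) with the replicate block. Under the block 0 genes were called lower or higher in any list or among all genes. The labels do not say that the replicate numbers pair the samples, although same-numbered libraries were of the same sex. After each genotype's mean log2 CPM was subtracted, the correlation of same-numbered libraries was -0.174, 0.183 and -0.295. Other pairs of libraries ran from -0.286 to 0.335. Deviations from means of so few libraries cannot decide whether the samples were paired. Leave-one-out ranges were -0.71 to -0.57 for *Ptgs1*, -1.26 to -0.94 for *Ptgs2*, -0.81 to -0.47 for *Ptges*, -2.68 to -1.45 for *Ptgis*, -2.52 to -1.56 for *Slco2a1* and 0.69 to 0.92 for *Hpgd*. They were 0 to 3 members called lower and 0 to 1 higher, 0 to 1 of the other prostanoid genes lower and 0 to 1 higher, 2 to 13 markers lower, and 27 to 439 of all genes lower and 30 to 291 higher. The highest counts of lower markers and of all genes came without WT replicate 3, that of lower members without *Bmal1*-/- replicate 2 and that of higher members without WT replicate 4. Medians ranged from -0.68 to -0.36 for endothelial, -0.48 to -0.24 for mural and -2.28 to -0.64 for fibroblast markers. The mast cell median was -1.16 with DESeq2 and -1.05 with no filter beyond 1 count, which test more of its genes. No direction of a member was reversed under any of these alternatives, and the causes of the changes were not tested.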

Other observations

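The lipoxygenase branch, which makes leukotrienes from the same arachidonic acid, was also measured. Of 24 genes listed 21 were tested, and none was called by edgeR. At an unadjusted p under 0.05, 5 were lower and 0 higher, beside 12.2% and 8.64% of all genes. The median log2 fold change was -0.28 (-0.48 without *Bmal1*-/- replicate 1 and -0.17 without WT replicate 3, its extremes with 1 library left out). Fitted values were below 0 for 16 genes and above 0 for 5. DESeq2 called 2 lower, beside 5.63% of the genes to which it gave an adjusted p. *Alox5ap*, which encodes the protein that presents arachidonic acid to 5-lipoxygenase, had the highest mean per kilobase over all 7 libraries (48.4 CPM per kb), at 58.9 CPM per kb in WT and 34.5 in the libraries labelled *Bmal1*-/-, where *Ephx1* reached 35.7 CPM per kb. It had 57.3, 49.3 and 40.2 CPM in the libraries labelled *Bmal1*-/- and 69.5, 54.7, 135.2 and 75.0 CPM in WT, so that the genotypes overlapped and WT replicate 3 was highest (log2 fold change -0.77, SE 0.31, edgeR adjusted p = 0.219). Without WT replicate 3 the value was -0.44. The leukotriene C4 synthase gene *Ltc4s* (12 CPM per kb) had a log2 fold change of -0.59 (edgeR adjusted p = 0.182) and did not overlap. The genes for the enzymes that trim leukotriene C4 and D4, *Ggt5* and *Dpep1*, had values of -0.68 (edgeR adjusted p = 0.0786) and -1.84 (edgeR adjusted p = 0.0807), *Dpep1* on 8 to 69 counts. *Alox12*, the platelet-type lipoxygenase gene, had -0.91 (edgeR adjusted p = 0.151) on 11 to 39 counts, and *Ephx1*, an epoxide hydrolase gene (37.9 CPM per kb), had -0.15 (edgeR adjusted p = 0.458).

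Across the 7 libraries, the genes whose log2 CPM followed *Ptgs2* most closely among 12493 genes with a mean of at least 5 CPM were *Srf* (Pearson r = 0.992), *Tcf12* (0.990) and *Ier5l* (0.990). For *Slco2a1* they were *Txndc5* (0.992), *Adgra2* (0.990) and *Rcn1* (0.989), and for *Ptgds* they were *Pdgfd* (0.984), *Pik3c2b* (0.980) and *Pard3* (0.973). These are the highest of many values, over libraries that share genotype and tissue makeup, and are given as a description.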
